A study of Mus musculus with 10 samples.

Results

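The genes described are 10 components of transforming growth factor beta (TGF-beta) signalling: the ligands Tgfb1, Tgfb2 and Tgfb3, the receptors Tgfbr1, Tgfbr2 and Tgfbr3, the ligand-storage protein Ltbp1, and the intracellular mediators Smad3, Smad6 and Smad7. They were chosen by name, and every probe set (a group of array probes read out as 1 value) annotated to exactly 1 of these genes was used, which gave 24 of 45037 probe sets and 10 of 18193 genes. The tissue was isolated glomeruli, in which blood is filtered, from unweaned male mice aged 27 days, taken after perfusion of magnetic beads through the heart, and each mouse had an array of its own. The 5 mutants (Wt1 +/R394W) were heterozygous for a knock-in of the R394W missense change in Wt1, and the 5 wild types (Wt1 +/+) were littermates. Both genotypes came from generation N4 of a backcross to FVB/N. The allele is a germline knock-in, not restricted to glomeruli, and at this age, per the submitters, albuminuria was slight and light microscopy showed no lesion of the mesangium. The mice are called mutants 1 to 5 and wild types 1 to 5 below.

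TGF-beta ligands are secreted in a latent complex whose propeptide is tethered to the matrix by latent TGF-beta binding proteins, and integrins, thrombospondin and proteases can release the active ligand. Active ligand binds the type II receptor, which recruits and phosphorylates the type I receptor, and the type I receptor then phosphorylates SMAD2 and SMAD3, which enter the nucleus with SMAD4. In the glomerulus the pathway is known for matrix accumulation by mesangial cells and for injury of podocytes, the epithelial cells of the filter in which WT1 acts as a zinc finger transcription factor.

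Values are log2 expression values, each change was taken as mutant minus wild type with its standard error (SE), and p-values come from limma, adjusted over all probe sets. A probe set or gene passed, or was called, at an adjusted p under 0.05. Array medians lay within 0.0817 of each other. The podocyte marker genes of the lists used (8 measured) averaged between 12.15 and 12.51 in mutants and between 12.38 and 12.56 in wild types, so the labelled tissue carried its defining markers in every array. Of these 8, 7 had a negative change, where 51.7% of all genes had a positive one, and none passed. At an unadjusted p under 0.05, 2 of the 8 were lower, against 5.38% of all genes, and their part in the results below was not tested. Tubule markers varied widely within both genotypes: averaged over proximal and distal tubule markers, the tubule score spanned 6.95 (mutant 5) to 9.52 (mutant 4) in mutants, against 6.83 to 8.81 in wild types, with wild type 5 lowest and wild type 1 highest. Erythroid markers averaged 6.66 to 7.11 in mutants and 7.13 to 7.82 in wild types, with 1 of 4 called lower and 3 of 4 lower at an unadjusted p under 0.05, against 0.698% and 5.38% of all genes. Leukocyte markers averaged 6.22 to 6.89 in mutants and 6.39 to 7.13 in wild types. Of the 9 measured, 1 was called lower, against 0.698% of all genes, 4 had a positive change, and the median change was -0.01. The part of erythroid and leukocyte markers in the results below was not tested. Wt1 itself had a change of 0.33 ± 0.10 (SE, adjusted p = 0.244), and a missense allele need not alter its transcript, so this checks no label. The number of arrays limits the precision.

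No probe set of the 10 genes passed the test (limma, 0 of 24), where 0.853% of all probe sets did. Without adjustment, 5 of the 24 had a p under 0.05, all with a positive change, against 9.36% of all probe sets in either direction and 4.74% with a positive change. These 5 were the 4 probe sets of Tgfb2 and the only probe set of Tgfb3. The 17 probe sets outside the ligand genes had changes between -0.17 and 0.13, with a median of -0.03. Of the 17 changes, 14 were negative, where 49.2% of all probe sets had a positive one. Some of the 14 were very small, such as -0.0004 (Ltbp1 1419786_at) and -0.0023 (Smad7 1443771_x_at), and several probe sets read the same gene. Over all probe sets the median change was -0.0022. In none of the 24 were the genotypes free of overlap, a state seen in 2.78% of all probe sets. With 1 probe set per gene, the one with the highest mean, 0 of 10 genes passed where 1.26% of all genes did. The median change was -0.07 for the 10 genes and 0.0043 over all genes. Without adjustment, 2 of these 10, Tgfb2 and Tgfb3, had a limma p under 0.05, both with a positive change. That share compares with 11% of all genes in either direction and 5.62% with a positive change.

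**Figure D1:**
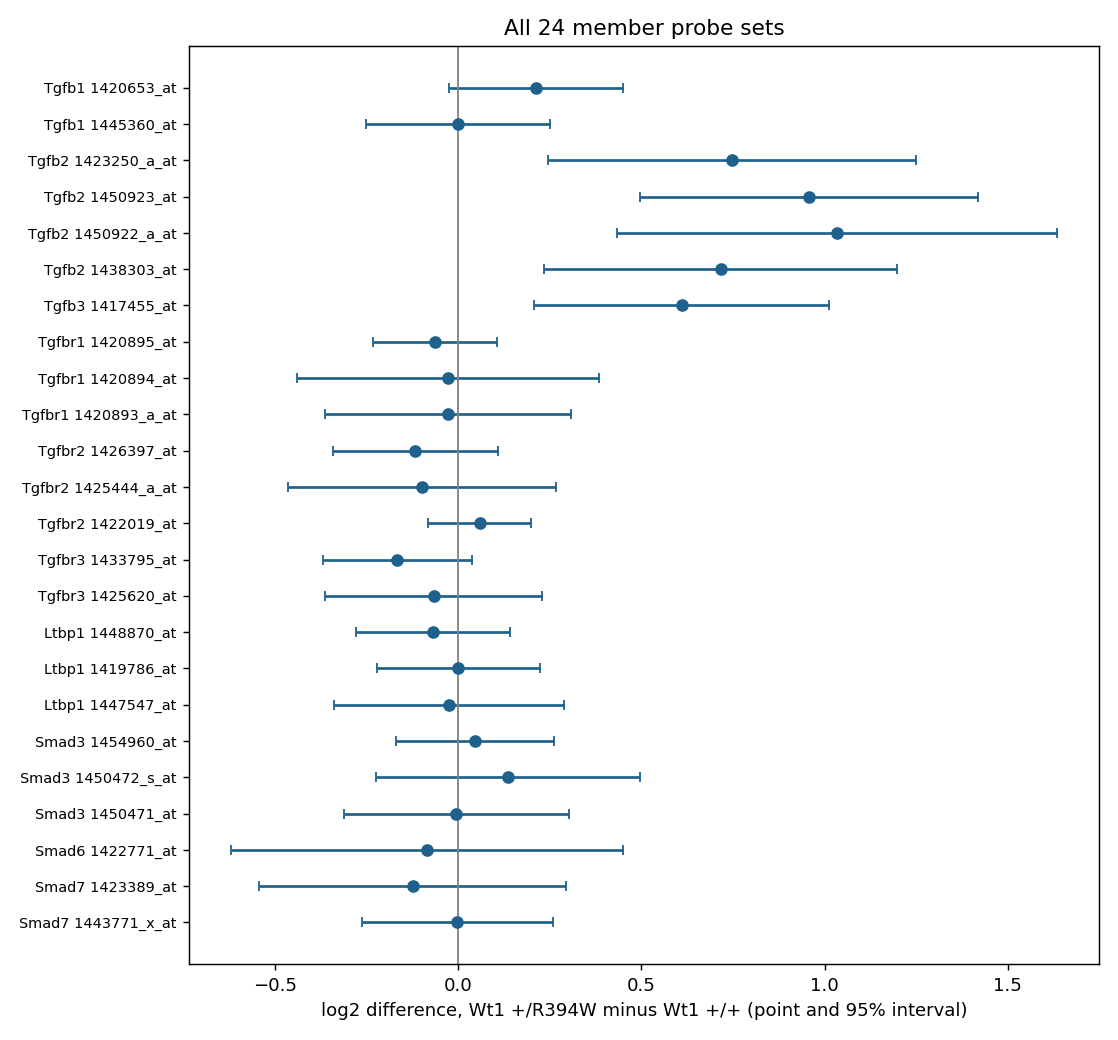
Log2 difference of Wt1 +/R394W minus Wt1 +/+ for all 24 probe sets of the 10 TGF-beta pathway genes, with points at the estimate and bars for the 95% interval of limma, 5 mice per genotype. The 4 probe sets of Tgfb2 (0.72 to 1.03) and that of Tgfb3 (0.61) lie to the right, and the others lie between -0.17 and 0.21.

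The promoter sequences of the ligands Tgfb2 and Tgfb1 are shown because Tgfb2 had the largest change of the 10 genes and Tgfb1 a small one. They are the 250 bases before the annotated transcription start from RefSeq (GRCm38.p6), Tgfb2 at chr1:186705990-186706239 on the minus strand and Tgfb1 at chr7:25686752-25687001 on the plus strand. Of the 10 genes, 7 had an entry. Capitals mark the E-box CACGTG in Tgfb2 and, in Tgfb1, a minus-strand match to GCGTGGGNG, a GC-rich site of the kind WT1 binds.
Tgfb2: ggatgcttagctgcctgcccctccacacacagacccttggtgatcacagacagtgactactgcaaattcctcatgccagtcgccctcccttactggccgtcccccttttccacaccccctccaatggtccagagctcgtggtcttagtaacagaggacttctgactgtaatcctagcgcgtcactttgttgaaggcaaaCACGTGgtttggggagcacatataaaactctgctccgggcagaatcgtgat
Tgfb1: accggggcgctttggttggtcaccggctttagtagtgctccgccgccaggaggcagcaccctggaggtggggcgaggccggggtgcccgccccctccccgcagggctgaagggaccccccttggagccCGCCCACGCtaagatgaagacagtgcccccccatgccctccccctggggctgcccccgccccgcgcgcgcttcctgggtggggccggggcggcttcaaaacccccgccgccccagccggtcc
Both strands were searched for CACGTG, GCGTGGGNG, GCGGGGGCG (the site of EGR proteins, which WT1 also binds), GTCTAGAC (bound by SMADs), TGACGTCA (the cyclic AMP response element) and GGGCGG (bound by Sp1), the last without capitals here. The E-box lay 51 to 46 bases before the start of Tgfb2 and the WT1-type match 122 to 114 bases before the start of Tgfb1. Such matches were not particular to Tgfb1 among the genes with an entry. Tgfbr2 had GCGTGGGAG, a match to GCGTGGGNG, 138 to 130 bases before its start. Tgfbr1 had GCGGGGGCG 192 to 184 bases before an annotated start. Of 32851 promoter windows of the same length, 6.02% held CACGTG, 1.65% held GCGTGGGNG, 2.57% held GCGGGGGCG, 1.55% held TGACGTCA and 0.17% held GTCTAGAC. The window of Tgfb2 held no other of these motifs, while that of Tgfb1 held GGGCGG at 5 places, 1 of them overlapping the WT1-type match by all but 1 of its bases, and 32.74% of windows held GGGCGG at least at 1 place. The window of Tgfb2 had 53.6% G and C, that of Tgfb1 had 75.2%, and the median of all windows was 52.4%. The arrays measure transcripts, so these matches describe letters and not binding.

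Tgfb2, on chromosome 1, encodes the ligand whose signalling depends most on the co-receptor betaglycan. All 4 of its probe sets had positive changes, and none passed. At 1450923_at the mutants read 8.73, 8.69, 8.70, 8.20 and 8.92 and the wild types 7.26, 8.22, 8.02, 7.13 and 7.82. The genotypes overlapped only through mutant 4, which lay just below wild type 2. The change was 0.96 ± 0.21 (SE, 95% interval 0.50 to 1.42, adjusted p = 0.0708), a 1.94-fold difference. At 1423250_a_at, the probe set of Tgfb2 with the highest mean, mutants read 9.06, 8.95, 8.78, 8.27 and 9.03 and wild types 7.84, 8.69, 8.50, 7.49 and 7.84. Mutant 4 was again the lowest mutant and lay below wild types 2 and 3, and the change was 0.75 ± 0.23 (SE, 95% interval 0.25 to 1.25, adjusted p = 0.253). In the 7 mice with neighbouring animal numbers (mutants 1 to 4 and wild types 2 to 4) it was 0.54 (adjusted p = 0.805). With the run of numbers as a block in those mice it was 0.59 (adjusted p = 0.632). At 1450922_a_at mutants read 8.04, 8.05, 8.27, 7.57 and 8.73 and wild types 6.48, 7.53, 7.66, 6.46 and 7.35, a change of 1.03 ± 0.27 (SE, 95% interval 0.43 to 1.63, adjusted p = 0.160). At 1438303_at mutants read 6.71, 6.95, 7.01, 6.18 and 7.32 and wild types 5.82, 6.31, 6.56, 5.63 and 6.27, a change of 0.72 ± 0.22 (SE, adjusted p = 0.254). Mutant 4 was the lowest mutant and wild types 1 and 4 the lowest wild types at each of the 4, and these probe sets read the same RNA, so they are not separate replicates of the difference.

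Tgfb3, on chromosome 12, encodes a ligand known for palate and lung development and had 1 probe set (1417455_at). Mutants read 8.02, 7.51, 7.88, 7.81 and 8.55 and wild types 7.07, 7.73, 7.27, 7.11 and 7.52. Mutant 5 was the highest of all mice, and mutant 2 lay below wild types 2 and 5. The change of 0.61 ± 0.18 (SE, 95% interval 0.21 to 1.01) did not pass (adjusted p = 0.242).

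**Figure D2:**
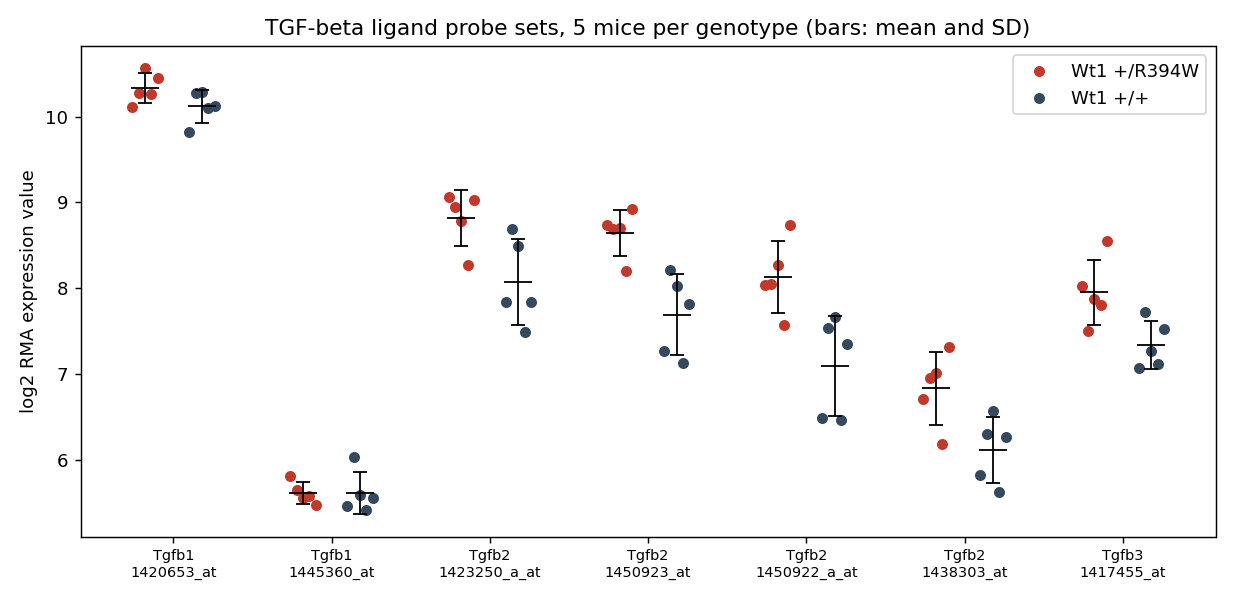
Log2 expression values of the 7 ligand probe sets in 5 Wt1 +/R394W mice (left of each pair) and 5 Wt1 +/+ mice (right), with each point a mouse and bars for the mean and SD. At the 4 Tgfb2 probe sets and the Tgfb3 probe set the mutant means lie 0.61 to 1.03 above the wild-type means, with overlap in each.

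Tgfb1, on chromosome 7, encodes the ligand most often linked to kidney fibrosis, and neither of its probe sets passed. At 1420653_at mutants averaged 10.33 ± 0.18 and wild types 10.12 ± 0.19 (SD, n = 5 each). The values were 10.11, 10.28, 10.56, 10.26 and 10.45 in mutants and 9.82, 10.28, 10.29, 10.10 and 10.13 in wild types, so only mutants 3 and 5 lay above every wild type. The change was 0.21 ± 0.11 (SE, 95% interval -0.03 to 0.45, adjusted p = 0.594), which leaves room for a difference of up to 1.37-fold. It was 0.14 without wild type 1, 0.083 in the 7 mice with neighbouring animal numbers (mutants 1 to 4 and wild types 2 to 4) and 0.075 there with the run of numbers as a block. The other probe set of Tgfb1 (1445360_at) had a lower mean of 5.61 and a change of -0.00061 ± 0.11 (SE, adjusted p = 0.999).

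Tubule markers ran alongside the values of Tgfb2 in part of the mice. Mutant 4, the lowest mutant for Tgfb2, had the highest tubule score (9.52), and wild types 1 and 4, the lowest wild types, had the highest wild-type scores (8.81 and 8.80). Other mice went the other way: wild type 3, with a score of 8.69, was the highest wild type at 1450922_a_at and 1438303_at, and mutant 1, with the second highest mutant score (9.06), was the highest mutant at 1423250_a_at. Mutant 5, with the lowest tubule score of the mutants, had the highest Tgfb3 value and the highest value at 3 of the 4 Tgfb2 probe sets, whereas wild type 5, with the lowest score of all, was not the highest wild type for either gene. With the tubule score as a covariate, 2 probe sets of Tgfb2 passed: 1450923_at with 1.02 ± 0.19 (SE, adjusted p = 0.0329) and 1450922_a_at with 1.14 ± 0.22 (SE, adjusted p = 0.0398). Of all 45037 probe sets, 445 were called in that fit, against 384 in the main fit. Over all alternatives the adjusted p of these 2 probe sets of Tgfb2 ran from 0.0329 to 0.523 and from 0.0398 to 0.648. Tgfb3 had a change of 0.68 ± 0.14 (SE, adjusted p = 0.0528) in the fit with the tubule score. Without wild type 2, the wild type with the highest value there, 1450923_at also passed (1.09 ± 0.20 SE, adjusted p = 0.0429), and no other mouse left out gave a call for any of the 24 probe sets.

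Markers of mesangial and smooth muscle cells, the contractile cells of the glomerulus and its arterioles, also differed between mice. The mean of 9 measured markers ran from 10.37 to 10.85 in mutants and from 10.27 to 10.54 in wild types, with 6 of 9 changes positive, against 51.7% of all genes, and none passing the test. Without adjustment, 3 of the 9 had a limma p under 0.05 (2 positive and 1 negative), against 11% of all genes. Acta2 and Tagln of this list are also among the response genes described further on. Mutant 5 had the highest mean of these markers as well as the highest Tgfb3 value. With this mean as a covariate, an alternative added after seeing the data, the change of Tgfb3 was 0.27 ± 0.13 (SE, adjusted p = 0.612) and those of Tgfb2 were 0.59 to 0.81 (adjusted p from 0.339 to 0.593). In whole glomeruli a change in the number of cells of a type and a change in RNA per cell cannot be told apart.

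**Figure D3:**
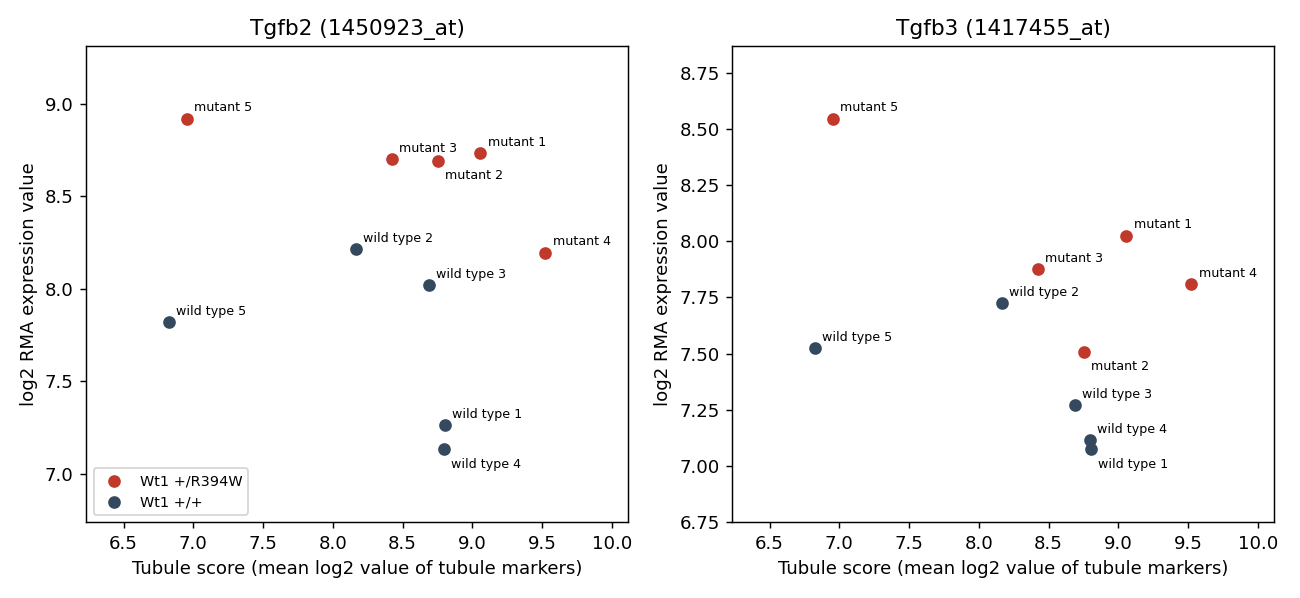
Log2 expression values of Tgfb2 (1450923_at, left) and Tgfb3 (1417455_at, right) against the tubule score, the mean log2 value of proximal and distal tubule markers, with each point a mouse. Mutant 4 and wild types 1 and 4, with tubule scores of 9.52, 8.81 and 8.80, have the lowest Tgfb2 values of their genotypes.

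Among the receptor genes no probe set passed (limma, 0 of 8, against 0.853% of all probe sets). At an unadjusted p under 0.05 there were also 0 of 8, against 9.36% of all probe sets. Of the 8 changes, 7 were negative, where 49.2% of all probe sets had a positive one, with 95% intervals between -0.46 and 0.38 in all. Several of these probe sets read the same gene, so the 7 negative signs are not independent. With the mesangial and smooth muscle marker mean as a covariate, 4 of those 7 had positive values, Tgfbr1 1420894_at with 0.062, Tgfbr2 1426397_at with 0.071 and 1425444_a_at with 0.17, and Tgfbr3 1425620_at with 0.038. Endothelial markers, all 10 with a negative change where 51.7% of all genes had a positive one, and none passing (limma, 2 of 10 with an unadjusted p under 0.05 and a negative change, against 5.38% of all genes), averaged 11.82 to 12.15 in mutants and 11.99 to 12.17 in wild types, and their part in the receptor values was not tested. Tgfbr2, on chromosome 9, encodes the type II receptor, which binds the ligand. Its brightest probe set (1426397_at) read 12.70, 12.97, 12.98, 12.81 and 12.45 in mutants and 12.81, 12.79, 13.07, 12.93 and 12.88 in wild types. Mutants 1 and 5 lay below every wild type and the other mutants among the wild types, and the change was -0.12 ± 0.10 (SE, 95% interval -0.34 to 0.11, adjusted p = 0.796). Of its other probe sets, 1425444_a_at had a change of -0.10 ± 0.17 (SE, adjusted p = 0.903), and 1422019_at, at a mean of only 3.39, says little.

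Tgfbr3, on chromosome 5, encodes betaglycan, the co-receptor that presents TGF-beta 2 to the type II receptor. At 1433795_at mutants read 12.00, 12.01, 12.08, 11.73 and 11.78 and wild types 12.03, 12.09, 12.33, 11.99 and 11.98. Mutants 4 and 5 lay below every wild type, and wild type 3 lay above all other mice. The change of -0.17 ± 0.09 (SE, 95% interval -0.37 to 0.04, adjusted p = 0.643) was the most negative of the 24. Without wild type 3 it was -0.10, and with the mesangial and smooth muscle marker mean as a covariate -0.088. The other probe set (1425620_at) had a change of -0.07 ± 0.14 (SE, adjusted p = 0.919).

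Tgfbr1, on chromosome 4, encodes the type I receptor kinase. At 1420895_at mutants read 9.64, 9.66, 9.69, 9.84 and 9.54 and wild types 9.76, 9.91, 9.70, 9.56 and 9.75. The genotypes lay in the same range, with a change of -0.06 ± 0.08 (SE, 95% interval -0.23 to 0.11, adjusted p = 0.857), which on the linear scale spans 0.851-fold to 1.08-fold. The 2 dimmer probe sets of Tgfbr1, with means of 6.22 and 6.01, both had a change of -0.03, with SEs of 0.19 and 0.15.

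Ltbp1, on chromosome 17, encodes a protein that tethers latent TGF-beta to the extracellular matrix. It read 9.73, 9.59, 9.58, 9.76 and 9.59 in mutants and 9.60, 9.96, 9.46, 9.69 and 9.88 in wild types at 1448870_at. All mutants lay within the range of the wild types, and the change was -0.07 ± 0.10 (SE, 95% interval -0.28 to 0.14, adjusted p = 0.879). The other probe sets had means of 5.65 and 4.99 and changes of -0.0004 ± 0.10 and -0.03 ± 0.14 (SE).

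Smad3, on chromosome 9, encodes a SMAD that the type I receptor phosphorylates. It read 9.70, 10.02, 10.13, 9.79 and 9.86 in mutants and 9.86, 9.80, 10.12, 9.72 and 9.77 in wild types at 1454960_at. The ranges nearly coincided, with a change of 0.05 ± 0.10 (SE, 95% interval -0.17 to 0.26, adjusted p = 0.924). Changes of its other probe sets were 0.13 ± 0.16 (1450472_s_at) and -0.0049 ± 0.14 (1450471_at, SE).

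Smad6 (chromosome 9) and Smad7 (chromosome 18) encode inhibitory SMADs, which block receptor-activated SMADs and are themselves induced by the pathways they restrain, SMAD6 mainly in bone morphogenetic protein signalling. Smad6 (1422771_at) read 10.51, 10.81, 11.42, 11.52 and 11.45 in mutants and 11.19, 11.94, 10.88, 11.31 and 10.83 in wild types. Its spread between mice was wide in both genotypes (SD 0.45 in each, n = 5), and the change of -0.09 ± 0.24 (SE, 95% interval -0.62 to 0.45) gave an adjusted p of 0.945 (limma). Smad7 (1423389_at) read 9.31, 8.84, 9.36, 9.65 and 9.53 in mutants and 9.30, 10.11, 9.11, 9.47 and 9.32 in wild types. Wild type 2 was the highest of all mice in both genes, and mutants 1 and 2 were the lowest mutants in both. The change of Smad7 was -0.12 ± 0.19 (SE, 95% interval -0.54 to 0.29, adjusted p = 0.892), with a value of 0.037 without wild type 2, and that of its other probe set (1443771_x_at) was -0.0023 ± 0.12 (SE). The residual SD of Smad6, 0.451, compares with a median of 0.132 over all genes, so the interval of Smad6 was the widest of the genes other than ligands.

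**Figure D4:**
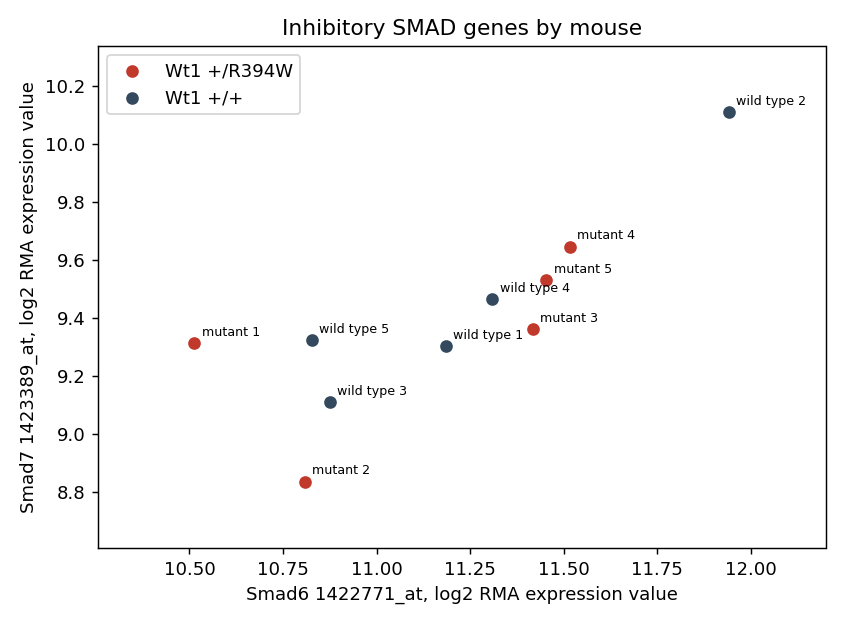
Log2 expression values of Smad7 (1423389_at) against Smad6 (1422771_at), with each point a mouse of Wt1 +/R394W or Wt1 +/+. Wild type 2 stands highest in both genes (11.94 and 10.11), and the genotypes overlap on both axes.

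Among other genes of ligand storage and activation, Dcn and Mmp2 rose and Itgb8 fell. These were 2 higher and 1 lower of 14 measured genes, against 0.566% higher and 0.698% lower of all genes. The median change was 0.11, against 0.0043 over all genes. Dcn and Mmp2 were known to change from earlier results of these data when the list was made, so the count of higher genes is no independent result. In these 3 the genotypes did not overlap, as in 3.67% of all genes. Itgb8 encodes an integrin chain that, paired with the alpha V chain, binds and activates latent TGF-beta. It read 9.95, 10.09, 9.84, 9.67 and 9.53 in mutants and 10.73, 10.54, 10.43, 10.42 and 10.54 in wild types (1436223_at, chromosome 12). Every mutant lay below every wild type, and on the log2 scale Itgb8 fell by 0.72 with an SE of 0.11 (adjusted p = 0.00894). It remained called whichever single mouse was left out, but not among the 7 mice with neighbouring animal numbers (mutants 1 to 4 and wild types 2 to 4, -0.58, adjusted p = 0.110), nor with the mesangial and smooth muscle marker mean as a covariate (-0.64, adjusted p = 0.0742). With the run of animal numbers as a block in those 7 mice, it had a change of -0.57 (adjusted p = 0.129). Its partner Itgav, the alpha V chain, had a change of -0.11 ± 0.07 (SE, adjusted p = 0.675).

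Dcn encodes decorin, a small proteoglycan that binds TGF-beta. At 1449368_at it read 8.79, 9.36, 9.43, 9.34 and 9.69 in mutants and 7.22, 7.85, 7.54, 7.25 and 7.57 in wild types, with no overlap. There it rose by 1.83 ± 0.16 (SE, adjusted p = 0.000252). At the other probe set of Dcn (1441506_at, mean 4.34) the genotypes overlapped, with a change of -0.03 ± 0.08 (SE, adjusted p = 0.953). Mmp2, a gelatinase that can cleave latent complexes, read 11.95, 12.11, 12.39, 12.19 and 12.00 in mutants and 11.32, 11.65, 11.59, 11.51 and 11.71 in wild types. It rose by 0.57 ± 0.10 (SE, adjusted p = 0.0213) with no overlap, and the call was lost without mutant 2 or 4 or wild type 1, 3 or 4 (adjusted p up to 0.0679), in the 7 mice with neighbouring numbers (adjusted p = 0.121) and with the mesangial and smooth muscle marker mean as a covariate (adjusted p = 0.0647). Both were known to change from earlier results of these data.

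Thbs1 encodes thrombospondin, an extracellular activator of latent TGF-beta. It read 10.37, 9.64, 10.23, 10.15 and 11.26 in mutants and 8.95, 9.90, 8.53, 9.05 and 9.90 in wild types. Mutant 2 lay below wild types 2 and 5 and mutant 5 above all other mice. The change of 1.07 ± 0.32 (SE, adjusted p = 0.244) did not pass, while with the tubule score as a covariate it was 1.21 with an adjusted p of 0.0299 (range over all alternatives 0.0299 to 0.612). Bgn (biglycan, a matrix proteoglycan, 0.23 ± 0.07 SE), Emilin1, whose product restrains TGF-beta processing (0.26 ± 0.11 SE), and Ltbp2, a relative of Ltbp1 (-0.15 ± 0.07 SE, mean 4.18), were not called, with adjusted p of 0.230, 0.466 and 0.570. Lrrc32 and Fbn1 were not analysed here.

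None of 10 other receptors and co-receptors of the TGF-beta superfamily passed (limma, 1 of 10 with an unadjusted p under 0.05, against 11% of all genes), and the median change was -0.07. The smallest p-values belonged to the activin receptors Acvr1b (-0.20 ± 0.09 SE, adjusted p = 0.526), Acvr2b (-0.13 ± 0.08 SE, adjusted p = 0.677) and Acvr1c (-0.13 ± 0.08 SE, mean 4.74) and to the decoy receptor Bambi (-0.15 ± 0.09 SE, adjusted p = 0.670).

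None of 18 SMAD partners and regulators passed either, where 1.26% of all genes did. An unadjusted limma p under 0.05 was seen in 2 of 18, against 11% of all genes, and the median change was 0.03. Tgif2, a nuclear corepressor of SMADs, read 8.39, 8.57, 8.85, 8.33 and 8.52 in mutants and 8.15, 7.76, 8.18, 7.85 and 8.18 in wild types. Its genotypes did not overlap, a state seen in 1 of the 18 and in 3.67% of all genes, and the change was 0.51 ± 0.12 (SE, adjusted p = 0.0911). At the other probe set of Tgif2 (1431115_at, mean 6.77) the genotypes overlapped, with a change of 0.34 ± 0.15 (SE, adjusted p = 0.522). Wwp1 (0.20 ± 0.09 SE) and Nedd4l (0.17 ± 0.09 SE), ubiquitin ligases that act on pathway components, and Trim33 (-0.11 ± 0.07 SE) had adjusted p of 0.526, 0.622 and 0.694.

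Among genes that TGF-beta is known to induce or regulate, Col1a2 and Postn fell. Of 23 measured response genes none rose and 2 fell, against 0.566% higher and 0.698% lower of all genes. Without adjustment, 11 had a limma p under 0.05, against 11% of all genes. Of these 11, 6 had a positive change, against 5.62% of all genes, and 5 a negative one, against 5.38%. The median change was 0.16, and the genotypes did not overlap in 3 of the 23, against 3.67% of all genes. Col1a2, a chain of type I collagen, read 10.29, 10.74, 10.94, 10.56 and 10.83 in mutants and 12.28, 12.08, 12.29, 12.15 and 12.30 in wild types. With no overlap, it fell by 1.55 on the log2 scale with an SE of 0.11 (adjusted p = 5.98e-05), and another probe set fell by 1.41. A further probe set of Col1a2 (1446326_at, mean 3.55) had a change of -0.19 and was not called (adjusted p = 0.581). Postn, which encodes periostin, read 9.38, 9.64, 9.43, 9.27 and 9.70 in mutants and 10.90, 9.69, 10.59, 10.39 and 10.61 in wild types. Only wild type 2 lay within the range of the mutants, and Postn fell by 0.95 on the log2 scale with an SE of 0.19 (adjusted p = 0.0469). Leaving out any mouse other than wild type 2 ended this call (adjusted p up to 0.117), as did the tubule score as a covariate (adjusted p = 0.0604), while without wild type 2 its adjusted p was 0.00186. Over all alternatives its adjusted p ran from 0.00186 to 0.308. Both falls were known from earlier results of these data.

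Several other response genes had higher mutant means that did not pass. Fn1, which encodes fibronectin, read 8.49, 7.80, 8.12, 8.42 and 9.04 in mutants and 7.68, 7.61, 7.56, 7.38 and 7.68 in wild types. The genotypes did not overlap, the change was 0.79 ± 0.19 (SE, adjusted p = 0.100), and it passed with the tubule score as a covariate (0.85, adjusted p = 0.0492) and without mutant 2 (0.94, adjusted p = 0.0298), in a range over all alternatives of 0.0298 to 0.254. Col3a1, a fibrillar collagen gene, had a change of 1.01 ± 0.28 (SE, adjusted p = 0.186) and Acta2, the smooth muscle actin gene, 0.89 ± 0.27 (SE, adjusted p = 0.243). Cdkn2b, a cell cycle inhibitor gene, had a change of 0.46 ± 0.11 (SE, adjusted p = 0.108), and it passed without wild type 2 (0.56, adjusted p = 0.0144, in a range over all alternatives of 0.0144 to 0.654).

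**Figure D5:**
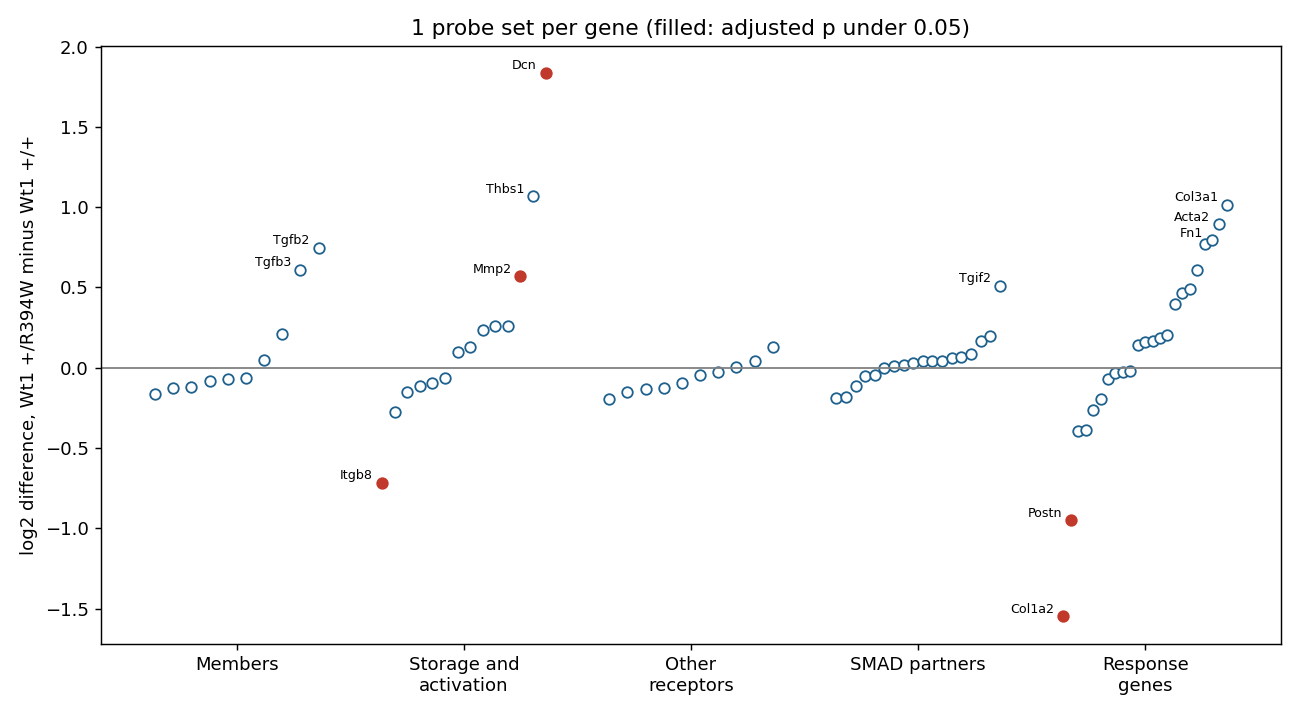
Log2 difference of Wt1 +/R394W minus Wt1 +/+ for 1 probe set per gene, in the 10 TGF-beta genes described and in 4 lists of other pathway genes, ordered by value within a list, with filled points for genes with an adjusted p under 0.05. Dcn and Mmp2 rose and Itgb8, Col1a2 and Postn fell, and no receptor or SMAD partner is filled.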

How the data were processed

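Each mouse gave 1 array of glomerular RNA. The authors deposited log2 values made by RMA (robust multi-array average), per the submitters' processing notes, which name no version. RMA equalises the arrays' distributions, so changes are relative to the array as a whole. Of 45101 probe sets, 64 controls were left out, and GEO's platform annotation names exactly 1 gene for 34945. Mice are numbered in accession order within a genotype. The genotypes were fitted in limma 3.58.1 (R 4.3.3) without covariates, two-sided, with Benjamini-Hochberg adjustment over 45037 probe sets; every adjusted p comes from limma. In counts of genes, the probe set with the highest mean stood for its gene. The text names all 10 genes and, of each pathway list, the called genes and up to 4 others with the smallest p; Itgav, Tagln and the other probe sets of named genes were added after their values were seen. The 10 genes and all lists were chosen with earlier results of these data known. The fit was tested on simulated data. Alternatives varied scaling, filters, variance model, array weights, covariates, probe sets, threshold and mice.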

Additional observations from a re-analysis of the deposited data

Results flagged for a closer look

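In 5 of 90 groups of 5 mice, 1 mouse lay far from the other 4 of its genotype, where chance gives about 1 group in 20. Wild type 3 was high at both probe sets of Tgfbr3, with 12.33 against 11.98 to 12.09 in the other wild types at 1433795_at and 8.89 against 8.18 to 8.38 at 1425620_at, and for Bambi, with 10.49 against 10.20 to 10.26. Wild type 2 was high at the dimmer probe set of Tgfb1 (1445360_at), with 6.04 against 5.41 to 5.59. Mutant 1 was low for Acvr1b, with 9.75 against 10.06 to 10.14 in the other mutants.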

How the results depend on the processing

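Of 482 values of the 24 probe sets under alternatives, 428 kept their direction and side of the threshold, 3 came to pass and 51 changed sign, each with an absolute value of at most 0.167 and an adjusted p of at least 0.726. Probe sets called among the 24 numbered 2 with the tubule score as a covariate and 0 to 1 when 1 mouse was left out, against 0 in the main analysis. Over all probe sets the count of 384 became 110 in the 7 mice with neighbouring animal numbers, 126 in those with the number run as a block, 149 with the mean of mesangial and smooth muscle markers in the model (an alternative added after seeing the data) and 144 at an adjusted p under 0.01, and it was 216 to 301 with 1 mouse left out. The 3 calls for storage and activation became 1 in those 7 mice, 1 with the block and 1 with the mesangial covariate, 4 with the tubule score, 2 at the stricter threshold and 2 to 3 with 1 mouse left out. The 2 calls for response genes became 1 in the same 3 settings, with an intensity trend, with array weights, without cross-matching probe sets and at the stricter threshold, and 1 to 3 with 1 mouse left out. Fewer mice entered the fits without a mouse or with 7 mice. Without cross-matching probe sets, the probe set that stood for Col1a2 (1450857_a_at) was not in the fit, so Col1a2 could not be counted. A stricter threshold can only lower a count. For the other settings the cause was not tested.

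Changes of sign were as follows. With arrays centred, Tgfb1 1445360_at had 0.0052, Ltbp1 1419786_at 0.0054, Smad3 1450471_at 0.00095 and Smad7 1443771_x_at 0.0036, and after quantile normalization Tgfb1 1445360_at had 0.012 and Ltbp1 1419786_at 0.0082. With array weights Tgfbr1 1420894_at had 0.0085 and Smad3 1450471_at 0.039. With the tubule score Smad3 1450471_at had 0.030 and Smad7 1443771_x_at 0.0043. With the mesangial mean Tgfbr1 1420894_at had 0.062, Tgfbr2 1426397_at 0.071 and 1425444_a_at 0.17, Tgfbr3 1425620_at 0.038, Ltbp1 1447547_at 0.058 and Smad3 1450471_at 0.022. In the 7 mice Ltbp1 1419786_at had 0.061, and 0.071 with the block. With 1 mouse left out the ranges were -0.050 to 0.11 (Tgfb1 1445360_at), -0.13 to 0.15 and -0.16 to 0.072 (Tgfbr1 1420894_at and 1420893_a_at), -0.12 to 0.057 (Tgfbr3 1425620_at), -0.065 to 0.064 and -0.13 to 0.064 (Ltbp1 1419786_at and 1447547_at), -0.079 to 0.10 and -0.010 to 0.11 (Smad3 1450471_at and 1454960_at), -0.19 to 0.093 (Smad6), and -0.21 to 0.037 and -0.083 to 0.080 (Smad7 1423389_at and 1443771_x_at).

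No paired analysis was possible because the labels give the genotypes no shared replicate or litter numbers. Probe sets of low signal (Tgfbr2 1422019_at and Ltbp1 1447547_at, means 3.39 and 4.99) limit what can be said of them.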
